A study of Mus musculus with 18 samples.

Results

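Protein phosphatase 2A (PP2A) subunits were examined in round spermatids (RS), post-meiotic haploid germ cells that precede elongating spermatids. The genes were chosen by name, with earlier results of these data known. They are the catalytic subunits Ppp2ca and Ppp2cb, the scaffold subunits Ppp2r1a and Ppp2r1b, the B55 regulatory subunit Ppp2r2b, and the B56 regulatory subunits Ppp2r5a, Ppp2r5b, Ppp2r5c, Ppp2r5d and Ppp2r5e. These are 10 of the 54232 genes counted, and 10 of 10 were among the 21058 genes that passed the filter on low counts. RNA was taken from RS of WT mice, of GRTH-KO mice, which lack the RNA helicase GRTH encoded by Ddx25, and of GRTH-KI mice, which carry a human GRTH gene with a missense mutation and lack the phosphorylated form of the protein. The mice were 75 to 85 days old, and each genotype had 6 libraries, 18 in all. RS were separated from other testis cells by settling through an albumin gradient, and the labels name no treatment. The sources used here do not say whether each library came from its own mouse, so p-values measure the spread between libraries.

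PP2A is a serine/threonine phosphatase made of a catalytic subunit, a scaffold subunit and an exchangeable regulatory B subunit. The scaffold holds the catalytic subunit, and the B subunit sets where the enzyme is found and which phosphoproteins it acts on. The B55 family is best known for reversing cyclin-dependent kinase phosphorylation at the end of mitosis, and the B56 family for binding substrates at a short linear motif and for protecting cohesin at meiotic centromeres together with shugoshin.

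The promoters of 3 of these genes are shown because their mRNAs were called in opposite directions: Ppp2r5a fell, while its low-level paralog Ppp2r5b and the catalytic subunit Ppp2ca rose. Each runs 5′ to 3′ along the gene from 250 bases before to 50 bases after a RefSeq start site (build GRCm38.p6). Windows were examined for 7 of the 10 genes. No window was examined for Ppp2cb, Ppp2r2b and Ppp2r5e, which does not show that RefSeq lacks a start site for them. Nothing is said here about the motifs of these genes. Capitals mark TGACG, the core of the cAMP response element (CRE), and the CCAAT box, on either strand (CGTCA and ATTGG), including the full palindromic CRE.
Ppp2r5a, chr1:191396992-191397291, minus strand: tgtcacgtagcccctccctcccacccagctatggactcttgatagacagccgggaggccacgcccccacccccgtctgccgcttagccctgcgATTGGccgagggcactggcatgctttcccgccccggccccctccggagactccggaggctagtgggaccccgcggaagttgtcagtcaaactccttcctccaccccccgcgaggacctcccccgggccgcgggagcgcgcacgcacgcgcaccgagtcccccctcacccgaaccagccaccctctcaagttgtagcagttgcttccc
Ppp2r5b, chr19:6235791-6236090, minus strand: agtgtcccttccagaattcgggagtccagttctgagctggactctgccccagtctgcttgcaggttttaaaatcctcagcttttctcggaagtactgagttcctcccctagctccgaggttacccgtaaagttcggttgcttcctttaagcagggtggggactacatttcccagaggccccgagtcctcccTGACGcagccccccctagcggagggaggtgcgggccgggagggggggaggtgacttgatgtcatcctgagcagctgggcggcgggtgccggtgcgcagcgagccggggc
Ppp2ca, chr11:52098574-52098873, plus strand: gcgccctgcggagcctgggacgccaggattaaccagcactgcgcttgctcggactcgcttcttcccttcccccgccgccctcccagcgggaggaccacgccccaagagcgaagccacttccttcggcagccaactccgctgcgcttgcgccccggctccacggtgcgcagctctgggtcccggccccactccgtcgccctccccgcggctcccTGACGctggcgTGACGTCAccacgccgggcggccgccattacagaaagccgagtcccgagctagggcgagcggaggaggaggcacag
The Ppp2ca window held the full CRE, TGACGTCA, beginning 26 bases before the start site, and a separate TGACG 37 bases before it. The full CRE was found in 1.79% of the 32851 promoter windows searched, which had the same length, and TGACG in 20.8%. The Ppp2r5b window held TGACG once, 59 bases before the start. The Ppp2r5a window held neither, and had a CCAAT box on the opposite strand beginning 157 bases before the start, a motif found in 37.4% of windows. Among the entries not printed, Ppp2r1a, called higher in KI, held 1 CCAAT box and no TGACG. The windows of Ppp2r1b, Ppp2r5c and Ppp2r5d, which were not called, also held no TGACG. Ppp2r1b held 2 CCAAT boxes and each Ppp2r5d window 6. A match is a description of the letters only.

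The libraries held between 18766971 and 26776555 counts on genes. Ddx25 lay between 538 and 607 normalized CPM (counts scaled to the size of the library) in WT and between 47.7 and 90.9 CPM in KO. It lay between 0.0456 and 0.519 CPM in 5 KI libraries, while the library labelled KI 4 had 56.9 CPM, inside the KO range. That library also differed from KO 2 by less than any other pair of libraries, with a pair index of 1.59, where 1 is counting noise alone. Another 6 pairs, each within a genotype, had an index under 4: WT 1 and 2, WT 3 and 4, WT 5 and 6, KO 4 and 5, KI 1 and 2, and KI 3 and 5. With such same-genotype pairs summed, 3 WT, 5 KO and 4 KI samples were left. Markers of RS were present in every genotype, with a summed level of 787 to 1159 CPM over 7 genes in WT, 626 to 1132 in KO and 576 to 812 in KI. Of these 7, Crem and Catsper3 were called lower in KO (-0.60 and -0.53) and in KI (-0.73 and -0.75). Markers of elongating spermatids summed to 12300 to 16961 CPM in WT, 1492 to 3449 in KO and 1833 to 2981 in KI, and 7 of 7 were lower past 1 log2 unit in both KO and KI. The 5 Leydig cell markers summed to 9.68 to 19.7 CPM in WT, 29.6 to 51.0 in KO and 13.2 to 65.7 in KI, and 5 of 5 were called higher in both. For a change of any size, 16.4% of all genes were called higher and 13.5% lower in KO, and 16.1% and 15.4% in KI. Past 1 log2 unit, 1.13% were called lower in KO and 1.43% in KI. Of 6 spermatogonium markers, 2 were called higher in KO and 1 in KI, Stra8 by 1.23 and 0.71. Of 8 spermatocyte markers, 2 were called higher and 2 lower in KO, and 1 each way in KI. Sycp3 rose by 0.74 and 0.75. By DESeq2, Spo11 and Meiob fell by 0.48 and 0.49 in KO, and Spo11 fell by 0.36 in KI. The spermatocyte markers summed to 1117 to 1415 CPM in WT, 1148 to 1590 in KO and 1166 to 1504 in KI. Sertoli, macrophage, and endothelial and peritubular markers summed to at most 9.64, 8.38 and 5.70 CPM in any library. Of 6 Sertoli markers, 1 was called lower in KO and 1 in KI. Of 3 macrophage markers tested, 1 was called higher in KO and 1 in KI. Of 4 endothelial and peritubular markers, 1 was called higher and 1 lower in KO, and 1 lower in KI. In bulk RNA, fewer cells of a type and less RNA per cell cannot be told apart, and the part of these markers in the results was not tested.

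Of the 10 PP2A subunit mRNAs, 2 fell by more than 1 log2 unit in KO compared to WT, Ppp2r2b and Ppp2r5a, and the same 2 did so in KI compared to WT. Of all genes tested, 1.13% were called lower past 1 log2 unit in KO (239 genes) and 1.43% in KI (301 genes), by edgeR's glmTreat test at an adjusted p of 0.1. For a change of any size (glmQLFTest), 3 of the 10 were called lower in KO (Ppp2cb, Ppp2r2b and Ppp2r5a), beside 13.5% of all genes, and 2 were called higher (Ppp2ca and Ppp2r5b), beside 16.4%. The same 3 were called lower in KI, beside 15.4% of all genes, and 3 were called higher (Ppp2ca, Ppp2r1a and Ppp2r5b), beside 16.1%. The median log2 fold change of the 10 was 0.16 in KO and 0.07 in KI, and that of all genes was 0.03 and 0.05. Between KI and KO, 0 of the 10 were called by edgeR, beside 0.0997% of all genes (21). An unadjusted edgeR p under 0.05 was found for 0 of the 10 and for 931 of all 21058 genes. DESeq2 called 0 of the 10 and 85 genes in all. Both comparisons to WT share the 6 WT libraries. Since the 10 genes were chosen with earlier results of these data known, the counts of subunits called are not independent of that choice.

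**Figure D1:**
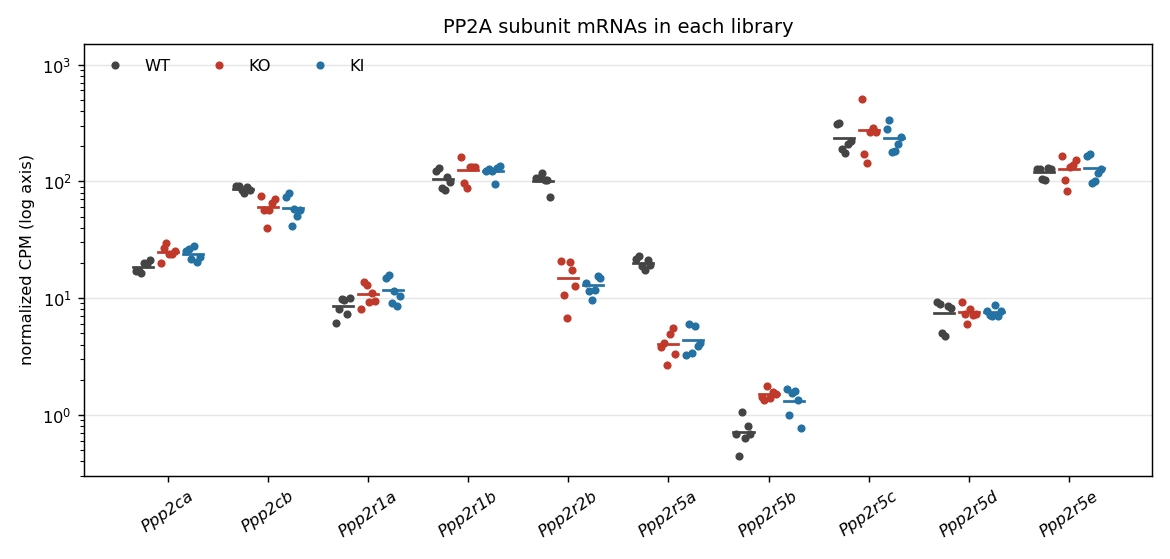
Normalized CPM (log axis) of each PP2A subunit mRNA in each of the 6 WT, 6 KO and 6 KI libraries (points), with the mean of each genotype as a bar. Ppp2r2b and Ppp2r5a in KO and KI lie below every WT library, Ppp2r5b in KO lies above every WT library, and the B56 paralogs Ppp2r5c, Ppp2r5d and Ppp2r5e overlap.

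The catalytic subunits moved in opposite directions. Ppp2cb, on chromosome 8 (33599625 to 33619441, plus strand, GRCm38), encodes the beta isoform and was the more abundant. It had a lowest, median and highest level of 79.0, 87.2 and 92.1 CPM in WT, 40.1, 61.2 and 74.3 CPM in KO, and 41.3, 57.3 and 79.0 CPM in KI. No KO library reached the WT range. The highest KI library was level with the lowest WT library to 3 digits, and the ranges did not overlap. The log2 fold change was -0.52 (SE 0.15, adjusted p = 0.0160) in KO and -0.54 (SE 0.15, adjusted p = 0.0115) in KI, by edgeR. Ppp2ca, on chromosome 11 (52098681 to 52127778, plus strand), encodes the alpha isoform. Its lowest, median and highest levels were 16.4, 18.4 and 21.3 CPM in WT, 20.01, 24.6 and 29.5 CPM in KO, and 20.2, 23.9 and 27.7 CPM in KI. The lower KO and KI libraries fell within the WT range. It rose by a log2 fold change of 0.43 (SE 0.11, edgeR adjusted p = 0.00862) in KO and 0.37 (SE 0.11, edgeR adjusted p = 0.0208) in KI. With the close library pairs summed, both KI calls were lost (edgeR adjusted p = 0.114 for Ppp2cb and 0.154 for Ppp2ca), and in KO the adjusted p values were 0.0935 and 0.0993.

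Per kilobase of exon, Ppp2cb made up most of the catalytic mRNA. Its share of the sum of Ppp2ca and Ppp2cb was 95.9% ± 0.550 (SD, n = 6) in WT, with a range of 95.3% to 96.5%. It was 92.2% ± 2.60 in KO, between 87.4% and 94.98%, and 92.5% ± 1.28 in KI, between 90.6% and 93.9%. Every KO and KI library lay below every WT library (two-sided exact permutation test, p = 0.00216, the smallest that 6 against 6 allows, and 0.0114 after adjustment over 21 share tests). On counts not divided by length, the share differed from WT by -12.1 percentage points in KO and -11.4 in KI, in place of -3.80 and -3.45. Summed, the catalytic mRNAs reached 61.5 ± 3.29 CPM per kb in WT, against 44.6 ± 7.95 in KO and 43.8 ± 9.86 in KI. The coding sequences of these paralogs were 81.7% identical over 927 bp in GENCODE M21, and the longest run their transcripts shared was 25 bp.

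Ppp2r1b, the beta scaffold on chromosome 9, had lowest, median and highest levels of 84.1, 104 and 130 CPM in WT, 88.4, 133 and 162 CPM in KO, and 94.0, 126 and 136 CPM in KI. The genotypes overlapped and Ppp2r1b was not called, with log2 fold changes of 0.24 (95% confidence interval -0.07 to 0.55) in KO and 0.21 (-0.10 to 0.52) in KI. Ppp2r1a, the alpha scaffold on chromosome 17, had lowest, median and highest levels of 6.13, 8.88 and 9.98 CPM in WT, 8.07, 10.2 and 13.8 CPM in KO, and 8.65, 10.9995 and 15.7 CPM in KI. Its ranges overlapped between genotypes. It was called higher in KI at a log2 fold change of 0.46 (SE 0.18, edgeR adjusted p = 0.0563) and was not called in KO at 0.35 (SE 0.18, edgeR adjusted p = 0.170). The KI call was lost without any one of WT 1, WT 5, KI 1 or KI 2, with edgeR adjusted p values of 0.135, 0.112, 0.129 and 0.144, and at 0.242 with close pairs summed. Without KO 1 the KO value, 0.41, was called at an edgeR adjusted p of 0.0987. Ppp2r1b made up 86.4% ± 3.96 (SD, n = 6) of scaffold mRNA per kb in WT, against 85.2% ± 5.47 in KO and 84.6% ± 3.66 in KI. These shares overlapped, with exact permutation p values of 0.660 in KO and 0.450 in KI.

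Ppp2r2b, a B55 subunit on chromosome 18 (42637432 to 43059471, minus strand, ENSMUSG00000024500), had the largest fold change of the 10 genes. Its lowest, median and highest levels were 73.5, 104 and 118 CPM in WT, from 1599 to 2678 counts. They were 6.74, 15.03 and 20.6 CPM in KO and 9.72, 12.7 and 15.5 CPM in KI. Every WT library was at least 73.5 CPM and no KO or KI library exceeded 20.6 CPM. The fold change was 6.88-fold lower in KO (log2 -2.78, SE 0.21, adjusted p for a change past 1 log2 unit = 4.83e-06, edgeR) and 7.91-fold lower in KI (log2 -2.98, SE 0.22, adjusted p = 9.08e-07, edgeR). Without the library labelled KI 4, the KI value was -2.96. With close pairs summed, it was -2.87 in KO and -2.95 in KI, still past 1 log2 unit. GENCODE places a processed transcript, AC099605.1, on the same strand within the gene, so reads of the 2 could be split or lost in counting.

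Ppp2r2b could also be set beside the other B55 genes. Ppp2r2a, the widely expressed B55 subunit, rose in both, from 73.8 ± 9.89 CPM in WT to 115 ± 9.31 in KO and 121 ± 23.6 in KI (SD, n = 6). Its log2 fold change was 0.64 (SE 0.13, edgeR adjusted p = 0.000798) in KO and 0.72 (SE 0.13, edgeR adjusted p = 0.000250) in KI. Ppp2r2c, at 0.785 CPM in WT, was called higher by 0.75 (SE 0.23, edgeR adjusted p = 0.0185) in KO and 0.53 (SE 0.23, edgeR adjusted p = 0.0974) in KI, where DESeq2 did not call it (adjusted p = 0.133). Ppp2r2d, the most abundant B55 mRNA, was not called, at -0.26 (SE 0.21) and -0.33 (SE 0.21). Per kilobase, Ppp2r2b was 34.9% of the B55 mRNA in WT (28.2% to 39.0%), 6.74% in KO (4.84% to 8.86%) and 6.29% in KI (4.34% to 8.38%). Ppp2r2a was 19.01% in WT, 41.7% in KO and 43.0% in KI, so Ppp2r2b was above Ppp2r2a in WT and below it in both mutants. These B55 shares were chosen after the values were seen and were not tested. Summed, B55 mRNA reached 72.9 ± 5.16 CPM per kb in WT, against 53.5 ± 11.002 in KO and 52.7 ± 11.3 in KI.

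**Figure D2:**
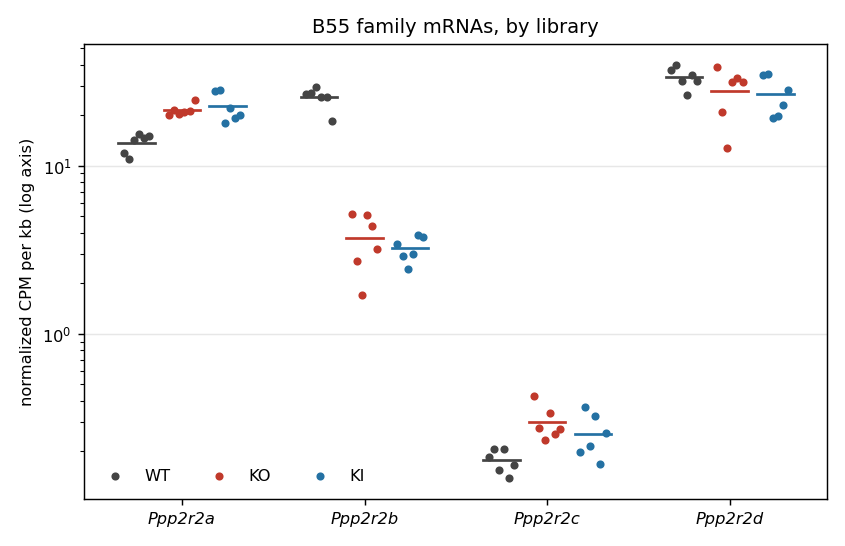
Normalized CPM per kb of exon (log axis) of the B55 genes in each library (points) with genotype means (bars). Ppp2r2b drops from a mean of 25.5 in WT to 3.70 in KO and 3.22 in KI, while Ppp2r2a rises from 13.7 to 21.4 and 22.5.

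Ppp2r5a (chromosome 1, 191351975 to 191403272, minus strand, ENSMUSG00000026626) encodes the B56 alpha subunit. Its levels in WT 1 to 6 had a lowest, median and highest value of 17.4, 20.2 and 22.7 CPM, from 356 to 566 counts. In KO they were 2.66, 3.96 and 5.53 CPM, from 56 to 138 counts, and in KI 3.27, 4.02 and 5.99 CPM, from 74 to 150 counts. The highest mutant library was below every WT library. The fold change was 4.94-fold lower in KO (log2 -2.31, SE 0.18, edgeR adjusted p for a change past 1 log2 unit = 2.93e-05) and 4.56-fold lower in KI (log2 -2.19, SE 0.18, edgeR adjusted p = 7.67e-05). Without the library labelled KI 4, which had 5.76 CPM, the KI value was -2.28. Between KI and KO the difference was 0.12 on the log2 scale, with a 95% confidence interval of -0.25 to 0.49.

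The other B56 genes did not share this fall. Ppp2r5b, the beta subunit on chromosome 19, was the lowest of the 10 genes in WT, with 11 to 20 counts per library. Its lowest, median and highest levels were 0.442, 0.688 and 1.06 CPM in WT, 1.35, 1.47 and 1.76 CPM in KO, and 0.775, 1.45 and 1.68 CPM in KI. Every KO library was above every WT library, while KI overlapped WT. It rose by 1.07 on the log2 scale (SE 0.23, edgeR adjusted p = 0.00146) in KO and 0.89 (SE 0.23, edgeR adjusted p = 0.00615) in KI, a change of any size but not past 1 log2 unit, and it rests on 39 counts or fewer in each library. Ppp2r5c, the gamma subunit, had lowest, median and highest levels of 174, 214 and 318 CPM in WT, 144, 266 and 511 CPM in KO, and 177, 225 and 332 CPM in KI. Its log2 fold change was 0.21 (95% confidence interval -0.30 to 0.72) in KO and 0.00 (-0.51 to 0.51) in KI. Ppp2r5d, the delta subunit, had 4.70, 8.40 and 9.28 CPM in WT, 6.03, 7.37 and 9.21 CPM in KO, and 7.03, 7.48 and 8.76 CPM in KI, as lowest, median and highest levels. Its log2 fold change was 0.01 (-0.32 to 0.35) in KO and 0.03 (-0.31 to 0.36) in KI. Ppp2r5e, the epsilon subunit, had lowest, median and highest levels of 102, 127 and 131 CPM in WT, 82.0, 136 and 163 CPM in KO, and 97.3, 122 and 172 CPM in KI. Its log2 fold change was 0.10 (-0.25 to 0.45) in KO and 0.11 (-0.23 to 0.46) in KI. For Ppp2r5c, Ppp2r5d and Ppp2r5e the genotypes overlapped, no change was called, and the intervals leave out a fall as large as that of Ppp2r5a.

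**Figure D3:**
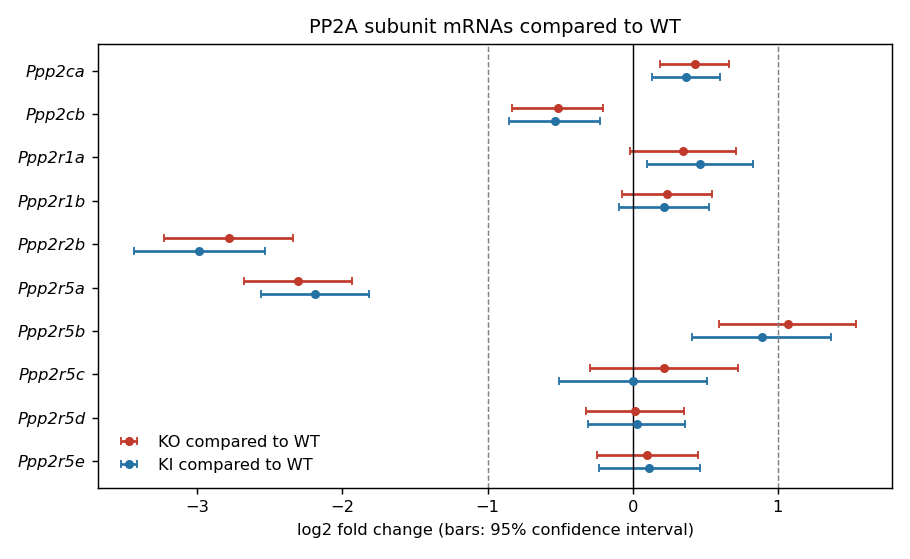
Log2 fold change of each PP2A subunit mRNA in KO and in KI compared to WT (points) with 95% confidence intervals (bars), and dashed lines at -1 and 1. The intervals of Ppp2r2b and Ppp2r5a lie wholly below -1 in both, and those of the other 8 genes lie above -1.

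Ppp2r5a was then compared with each paralog inside each library, as the log2 ratio of counts with 0.5 added, which needs no scaling between libraries. The ratio to Ppp2r5e was the tightest in WT, -2.57 ± 0.102 (SD, n = 6), between -2.74 and -2.46. It was -4.98 ± 0.388 in KO, between -5.50 and -4.63, and -4.88 ± 0.476 in KI, between -5.64 and -4.14. Relative to Ppp2r5e, Ppp2r5a thus differed from WT by -2.41 in KO and by -2.31 in KI, on the log2 scale. Relative to Ppp2r5c the differences were -2.47 and -2.22, and relative to Ppp2r5d -2.40 and -2.30. Relative to Ppp2r5b, which itself rose, they were -3.42 and -3.08. In all 8 of these the KO or KI libraries lay below every WT library (two-sided exact permutation test, p = 0.00216, adjusted p = 0.00325 over 12 tests). Between KI and KO the 4 differences were 0.34, 0.25, 0.10 and 0.10 for Ppp2r5b, Ppp2r5c, Ppp2r5d and Ppp2r5e, with exact permutation p values between 0.310 and 0.673 before adjustment. Ppp2r5a had more counts than Ppp2r5d in every WT library and fewer in every KO and KI library. The ratios are made from the same counts as the fold changes and are not independent of them. The study had named Ppp2r5a from these libraries, so the choice of this gene is not independent of the counts either. With close pairs summed, the sizes stayed between -3.51 and -2.13, but 3 WT samples against 4 KI samples cannot give an exact permutation p below 0.0571, and the adjusted p was 0.0857.

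**Figure D4:**
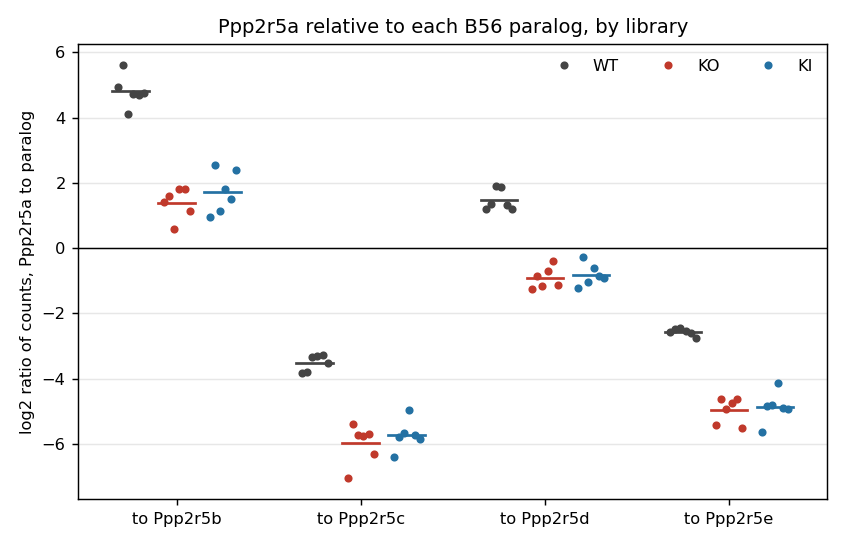
Log2 ratio of Ppp2r5a counts to the counts of each B56 paralog in each library (points), with genotype means (bars). In all 4 ratios the 6 WT points lie above every KO and KI point, and the KO and KI points overlap.

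In the B56 mRNA summed per kilobase, Ppp2r5a was a small part even in WT. It made up 3.81% ± 0.382 in WT (3.35% to 4.23%), 0.744% ± 0.221 in KO (0.412% to 0.987%) and 0.843% ± 0.271 in KI (0.499% to 1.33%). The share fell by 3.06 percentage points in KO and 2.96 in KI (exact permutation p = 0.00216, adjusted p = 0.0114). Ppp2r5b rose from 0.467% ± 0.189 to 0.958% ± 0.408 in KO (exact permutation p = 0.00433, adjusted p = 0.0182), and stood at 0.866% ± 0.349 in KI, where the adjusted p of the exact permutation test was 0.114. Ppp2r5c and Ppp2r5e made up 50.5% and 40.7% in WT, 53.0% and 40.8% in KO, and 50.5% and 43.0% in KI, with overlapping ranges. Summed, B56 mRNA reached 55.9 ± 9.98 CPM per kb in WT, against 60.7 ± 21.1 in KO and 56.4 ± 13.1 in KI. The exon length counted for Ppp2r5a, 9607 bp, exceeds its longest protein-coding transcript of 3088 bp, and with transcript lengths the share fell by 5.78 points in KO and fell by 5.57 points in KI, an alternative chosen after seeing the data. Ppp2r5a coding sequence was between 68.3% and 72.4% identical to that of its paralogs, and the longest run shared with any of their transcripts was 21 bp.

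By level per kilobase of exon, the order of the 10 genes in WT ran from Ppp2cb (59.0 ± 3.39 CPM per kb) through Ppp2r5c (28.5 ± 7.44), Ppp2r2b (25.5 ± 3.73), Ppp2r5e (22.5 ± 2.48) and Ppp2r1b (16.3 ± 2.87) to Ppp2r5d, Ppp2r1a, Ppp2ca and Ppp2r5a, at 2.54, 2.49, 2.48 and 2.10, and Ppp2r5b at 0.248. The ranges of neighbours from Ppp2r5c to Ppp2r1b overlapped, as did those from Ppp2r5d to Ppp2r5a, while Ppp2cb stood above and Ppp2r5b below the rest. In KO and KI, Ppp2r2b stood at 3.70 and 3.22 CPM per kb, within the range of Ppp2ca and Ppp2r1a. Ppp2r5a stood at 0.423 and 0.459, overlapping Ppp2r5b at 0.518 and 0.458. This order depends on the length used. Per kilobase of the longest protein-coding transcript, chosen after seeing the data, Ppp2r5a stood at 6.53 in WT, above Ppp2r1a, Ppp2ca and Ppp2r5d, and at 1.32 in KO and 1.43 in KI, where its range lay above that of Ppp2r5b (0.547 and 0.484) and below that of Ppp2r5d.

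The genes whose level over the 18 libraries was most like that of Ppp2r5a were Car2, Tppp2, 1700012A03Rik, Prm2 and Plekho2, with Pearson r of log2 CPM between 0.980 and 0.984. The points share 3 genotypes and the depth of their libraries. With each genotype centred on its own mean, r lay between 0.657 and 0.772. Prm2 encodes a protamine that packs sperm DNA and is on the elongating spermatid list, and Car2 encodes a carbonic anhydrase. Their log2 fold changes in KO were -3.36 for Prm2, -3.05 for Car2, -2.56 for Tppp2, -2.87 for 1700012A03Rik and -2.55 for Plekho2. Ppp2r2b ranked 115 of 21057 by the same measure (r = 0.959, and 0.441 within genotypes). Ppp2cb had r = 0.779 and Ppp2ca r = -0.737, while Ppp2r5c, Ppp2r5d and Ppp2r5e lay between -0.03 and 0.02. Within genotypes, r was 0.471 for Ppp2cb and -0.00392 for Ppp2ca. It was 0.365 for Ppp2r5c, 0.388 for Ppp2r5d and 0.344 for Ppp2r5e, which were close to Ppp2r2b by that measure. Ppp2r5b was not, with r = -0.831 over all libraries and -0.300 within genotypes. The elongating spermatid markers fell by 1.78 (Tnp1) to 3.36 (Prm2) on the log2 scale in KO, which spans the values of Ppp2r2b and Ppp2r5a.

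Genes that work with PP2A were examined as 5 lists, and none of their members was called past 1 log2 unit in KO or KI by edgeR or DESeq2, or at an unadjusted p under 0.05 for that change. Of all 21058 genes, edgeR called only 365 in KO and 411 in KI past 1 log2 unit. At that low share, a count of 0 in lists this short is not a result about these genes. The counts that follow are for a change of any size, each with the share of all genes called the same way. Among 6 other regulatory subunits, 2 were called higher (all genes 16.4%) and 0 lower (13.5%) in KO (median log2 fold change 0.00), and 2 higher (16.1%) and 1 lower (15.4%) in KI (median -0.04). The one called lower was Ppp2r3a, a B″ subunit that binds calcium, at -0.62 (SE 0.17, edgeR adjusted p = 0.00980) in KI and -0.13 in KO. Of 10 striatins and partners, which form the STRIPAK complex with PP2A, 3 were called higher and 2 lower in KO (all genes 16.4% and 13.5%) and 2 higher and 2 lower in KI (16.1% and 15.4%), with medians of 0.06 and 0.15. Pdcd10, which binds the GCKIII kinases in STRIPAK, fell by 0.62 in KO and 0.60 in KI. Strn, a striatin, rose by 0.37 in KO and was not called in KI, at 0.17.

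Of 6 assembly and methylation factors, 2 were called lower in KO (all genes 13.5%), and 1 was called higher and 1 lower in KI (16.1% and 15.4%), with medians of -0.05 and -0.06. Tiprl, which takes part in the turnover of PP2A complexes, fell from 90.8 ± 7.41 CPM in WT to 58.9 ± 11.2 in KO and 60.0 ± 9.16 in KI, by 0.62 (SE 0.13, edgeR adjusted p = 0.00122) and 0.60 (SE 0.13, edgeR adjusted p = 0.00160) on the log2 scale. Lcmt1, the methyltransferase of the catalytic subunit, fell by 0.27 in KO and was not called in KI, at -0.07. Ptpa, the PP2A activator, rose by 0.41 in KI and was not called in KO, at 0.28. Of 10 inhibitors and related genes, 2 were called higher in KO (all genes 16.4%) and 1 in KI (16.1%), with medians of 0.13 and 0.11. Sgo2a, the shugoshin that recruits B56-PP2A to centromeres, rose from 65.3 ± 14.2 CPM in WT to 110 ± 18.6 in KO and 121 ± 18.4 in KI, by 0.75 (SE 0.15, edgeR adjusted p = 0.000889) and 0.89 (SE 0.15, edgeR adjusted p = 0.000150). Set, which encodes a PP2A inhibitor, was called higher by 0.36 in KO (edgeR adjusted p = 0.0859), a call lost with DESeq2 (adjusted p = 0.132), and was not called in KI, at 0.21.

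Among 10 subunits of the related phosphatases PP4 and PP6, 2 were called higher and 2 lower in KO (all genes 16.4% and 13.5%), and 2 higher and 3 lower in KI (16.1% and 15.4%), with medians of -0.12 and -0.09. The catalytic subunit of PP6, Ppp6c, fell by 0.53 in KO (SE 0.18, edgeR adjusted p = 0.0337) and by 0.59 in KI (SE 0.18, edgeR adjusted p = 0.0174). Ppp4r3b, a PP4 regulatory subunit, rose by 0.46 and 0.45, and Ppp4c, the PP4 catalytic subunit, fell by 0.33 and 0.34. Ppp4r1 was called lower in KI, at -0.41, and not in KO, at -0.34.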

How the data were processed

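RS mRNA was sequenced from 6 WT, 6 KO and 6 KI libraries made without polyA selection. After trimming with cutadapt 3.4, the authors mapped reads to GRCm38 using STAR 2.7.8a and counted them by strand on GENCODE M18 genes with featureCounts (Subread 2.0.1), keeping marked duplicates, and deposited raw counts. The exon length column deposited by the authors was used for values per kb. Symbols came from GENCODE M21 (54079 of 54232 genes matched), and gene positions from the coordinates deposited with the counts.

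In R 4.3.3, edgeR 4.0.16 filtered genes with filterByExpr and fitted one quasi-likelihood model of genotype with TMM scaling to all 18 libraries. Changes past 1 log2 unit (glmTreat) and of any size (glmQLFTest) were called at a Benjamini-Hochberg adjusted p under 0.1. Ratios and shares within libraries were compared by two-sided exact permutation tests with scipy 1.17.1, adjusted over 12 and 21 tests at 0.05. The code was tested on simulated data. DESeq2 1.42.0 was an alternative. Promoters came from RefSeq, and coding sequences were aligned with Biopython 1.88. Depth was 18766971 to 26776555 counts per library, and counts cover counting error only, since PCR reads without molecular identifiers are not independent.

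The subunits and gene lists were chosen with earlier results of these data known. The genes named are the 10 subunits, from each other list any gene past 1 log2 unit and the 3 genes called with the largest change in KO, and the 5 genes most like Ppp2r5a. One gene within this rule is not reported here. Others (Ppp2r2d, Ppp2r3a, Ptpa, Ppp4r1 and the cell type markers) were named after their values were seen. Replicate numbers did not pair the libraries: r of same-numbered deviations was over 0.1 in at most 3 of 6 pairs.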

Additional observations from a re-analysis of the deposited data

Results flagged for a closer look

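Of 30 groups of 6 libraries tested over the 10 subunits, 2 held a library far from the others by Dixon's criterion, where chance flags about 1 in 20. Ppp2r2b was at 73.5 CPM in WT 6, beside 102 to 118 CPM in the other WT libraries. Without WT 6, the log2 fold change was -2.87 in KO and -3.03 in KI. Ppp2r1b was at 94.0 CPM in the library labelled KI 4, beside 123 to 136 CPM in the other KI libraries. Without it the KI value of Ppp2r1b was 0.28, which was not called (edgeR adjusted p = 0.200).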

How the results depend on the processing

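Ppp2r2b and Ppp2r5a kept their calls past 1 log2 unit in KO and in KI under all 27 alternatives tried, with log2 fold changes from -2.90 to -2.63 and -3.04 to -2.87 for Ppp2r2b and from -2.41 to -2.21 and -2.30 to -2.11 for Ppp2r5a. With the replicate block the Ppp2r5a values were -2.34 and -2.22 and those of Ppp2r2b -2.85 and -3.01. The block changed no call of a subunit or ratio, and left the shares of Ppp2cb, Ppp2r5a and Ppp2r5b at an adjusted p of 0.109, where 6 sign-flipped pairs cannot go below 0.03125 before adjustment. With close library pairs summed, all 8 ratios to WT had an adjusted p of 0.0857: -3.51, -2.52, -2.48 and -2.46 in KO and -2.97, -2.13, -2.26 and -2.20 in KI, for Ppp2r5b, Ppp2r5c, Ppp2r5d and Ppp2r5e. The shares then had an adjusted p of 0.300. Fewer samples are left in these fits. The Ppp2r5b share in KO missed 0.05 on counts not divided by length (0.0545). Of 19 comparisons of subunits that were not called, 10 changed sign in some setting, at values from -0.12 to 0.07.

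Genes called past 1 log2 unit numbered 365 in KO, against 214 with at least 10 counts in every library, and 411 in KI, against 247 with close pairs summed. Any change was called for 6297 genes in KO and 6644 in KI, against 3655 and 3402 with close pairs summed. Between KI and KO, 1 gene was called past 1 log2 unit, against 5 with DESeq2, 10 with no filter, and 0 with at least 10 counts or close pairs summed. Any change was called for 21, against 85, 97, 5 and 1 in those settings and 11 with only the 2 genotypes compared. Leaving out 1 library gave 0 to 15 and 8 to 111 genes, the highest of both without KI 4. The cause was not tested.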
